A study of Mus musculus with 21 samples.

Results

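The ribosomal DNA copy on chromosome 17 of the mouse genome was examined in DNA recovered from sperm nucleosomes. Its members were all listed CpGs with a start in chr17:39979946-39985767 (mm9), 5822 bp that stand in this assembly for the many near-identical ribosomal RNA genes, and no limit was set on their reads. There were 573 such CpGs among 15544856 in the table, 0.00369% of the CpGs, and they carried 214820 of 60995624 CpG reads, or 0.352% (a read is counted once for every CpG in it).

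The data come from 1 of the 21 samples of the series, a bisulfite library of sperm from C57BL/6 mice. Per the labels' protocols the sperm were obtained by swim-up, and micrococcal nuclease was used to release mononucleosomes. No treatment, genotype or age is given for these sperm, nor how many animals were pooled, and the other 20 samples were not analysed here. With 1 library there is no replicate and no test between groups, so the values below are descriptions. The 95% Wilson intervals cover counting error only. Reads at neighbouring CpGs are shared, so intervals over several CpGs are too narrow. PCR copies may also remain in the counts, which would make all intervals too narrow.

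Ribosomal RNA genes lie in tandem arrays, and RNA polymerase I transcribes each into a long precursor from which the RNAs of the ribosome are cut. An external spacer comes first in the precursor, followed by the RNA of the small subunit and then those of the large subunit. In somatic cells only some of the copies are transcribed, and methylation of their promoters is a known mark of silent copies. Genome assemblies hold few of the copies, so reads from all of them are placed on the few that are there. In the RefSeq gene table of another build, GRCm38.p6, the ribosomal pseudogene Rn18s-rs5 lies on chromosome 17 between Esp15 on one side and AY036118, a long noncoding RNA, and Esp38 on the other. Neither gene models nor sequence of mm9 were used, so no position of the interval is assigned to the spacer or to an RNA. The name of the interval was not checked against its sequence, nor how much of a ribosomal RNA gene it covers. In what follows, the unit means the 5822 bp of this interval.

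The ribosomal DNA was lowly but measurably methylated along the whole interval and was read far more deeply than the DNA beside it. The pooled level was 11.1% (10.99 to 11.3), from 23903 methylated CpG reads. The mean was 375 ± 236 reads per listed CpG (SD over 573 CpGs). The lowest CpG had 1 read, the median CpG 352 and the highest 1167. Most CpGs were thus deeply measured, with 529 of 573 at 50 reads or more and 513 at 100 or more.

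The contrast with the 20 kb on each side was sharp in both measurements. The flanks held 101 listed CpGs with 247 reads in all, a mean of 2.45 ± 1.53 reads (SD over CpGs), and none had more than 8. Their level was 75.3% (69.6 to 80.3), with 65.7% (55.9 to 74.3) on the left and 81.8% (74.8 to 87.1) on the right. The ribosomal DNA therefore had 153 times the reads per listed CpG of its flanks and a level that differed from theirs by -64.2 percentage points. The last CpG listed before the interval had 4 reads, 3 of them methylated, and the first CpG inside, 162 bp further on, had 78 reads with 19 methylated. At the other end the last CpG inside had 31 reads and the next listed one, 566 bp away, had 1. Flanking CpGs had a median of 2 listed CpGs in the 100 bp to their left and right, themselves included, against 23 in the ribosomal DNA.

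**Figure D1:**
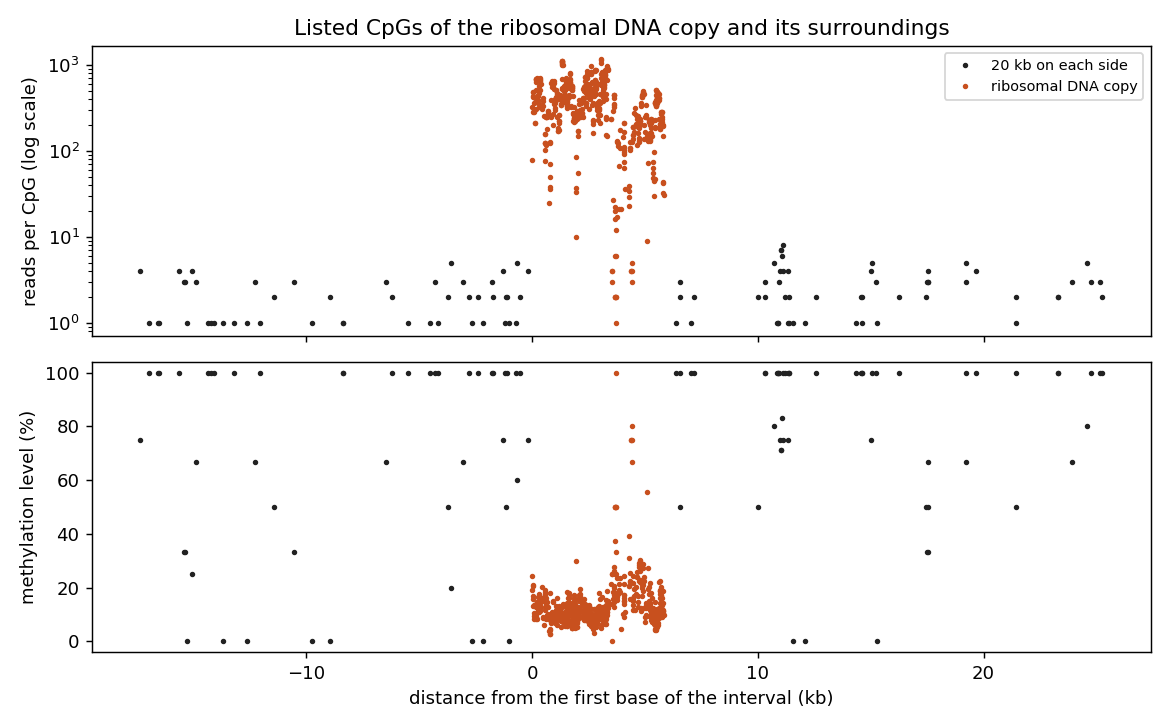
Reads (upper panel, log scale) and methylation level in percent (lower panel) of each listed CpG against distance in kb from the first base of the interval. Orange points are CpGs of the ribosomal DNA copy and black points those of the 20 kb on each side, where no CpG exceeds 8 reads.

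The plot of the copy and its surroundings shows the change at both ends as a step. Read number in this library counts both how many copies of a sequence the genome has and how much of each is recovered from nucleosomes. It also depends on where reads that match several places were put, which is not given in the sources used here. Copy number, recovery and read placement cannot be told apart here, and the sonicated genomic DNA of the series was not analysed.

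Methylation and reads both varied along the unit. Positions below count from 1 at the first base of the interval, and the 5822 bp were divided into 30 bins of 200 bp, the last of 22 bp. Pooled levels ran from 8.29% to 23.5% over the bins with a median of 12.1%, and mean reads per CpG from 37.0 to 639. The interval of 14 bins lay wholly above the level of the unit and that of 9 bins wholly below it. These counts are a description, since the intervals are too narrow.

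The unit can be described in 3 stretches with limits chosen after their values were seen. From position 1 to 3400 the 375 CpGs had a level of 10.2% (10.1 to 10.4) and a mean of 463 reads. From 3401 to 5200 the 116 CpGs had a level of 19.3% (18.7 to 19.8) and a mean of 174 reads. From 5201 to 5822 the 82 CpGs had a level of 10.7% (10.3 to 11.1) and a mean of 256 reads. The middle stretch was thus more methylated and less read than DNA on either side of it. All 9 of its bins were between 14.2% and 23.5%, and 1 of the other 21 bins was above 14%. This cut was also set with the values known, so the counts follow from the choice of limits and are a description.

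The bins at the extremes of each measurement were as follows. The highest level was found at positions 4601 to 4800, with 23.5% (22.1 to 24.99) over 17 CpGs and a mean of 195 ± 45.4 reads (SD over CpGs). Positions 4201 to 4400 followed with 23.0% (19.8 to 26.6) over 10 CpGs, and had only 57.8 ± 47.8 reads per CpG. Positions 3801 to 4000 had 20.5% (16.8 to 24.8) over 5 CpGs and 78.0 ± 64.5 reads. All of these lie in the middle stretch. High level did not always go with few reads there: positions 4801 to 5000 had 20.2% (19.2 to 21.3) and 384 ± 120 reads per CpG over 15 CpGs, more reads than any bin of the last stretch.

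The lowest levels lay in the first and the last stretch. They were 8.29% (7.86 to 8.75) at positions 2601 to 2800 over 27 CpGs with 544 reads per CpG, 8.30% (7.81 to 8.83) at 5401 to 5600 over 33 CpGs with 346 reads, and 9.04% (8.58 to 9.51) at 2401 to 2600 over 26 CpGs with 570 reads. The bins with most reads per CpG were 3201 to 3400 (639 ± 280), 1201 to 1400 (618 ± 324) and 3001 to 3200 (613 ± 228), at levels of 10.7%, 9.37% and 9.66%. Reads dropped from the bin of 3201 to 3400 to that of 3401 to 3600, which had 114 ± 132 reads per CpG over 7 CpGs and a level of 17.0% (14.6 to 19.8). Outside the middle stretch, bins with few reads had both lower and higher levels. Positions 601 to 800 had 10.5% (9.46 to 11.7) and 172 reads per CpG, and 5201 to 5400 had 11.4% (10.4 to 12.5) and 165 reads. Higher levels were found at 401 to 600, with 13.8% (12.6 to 15.1) and 216 reads, and at 5601 to 5800, with 14.7% (13.8 to 15.6) and 249 reads. The last bin, of 22 bp, had 13.5% and 37.0 reads. These bins outside the middle stretch and that of 4801 to 5000 were chosen after their values were seen.

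Neither end of the interval was at an extreme in level. The first 200 bp, with 21 CpGs, had a level of 12.7% (12.0 to 13.4) and 416 ± 177 reads per CpG. The last 22 bp, with 4 CpGs of 31 to 43 reads, had 13.5% (8.92 to 19.95), an interval that holds the level of the whole unit.

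**Figure D2:**
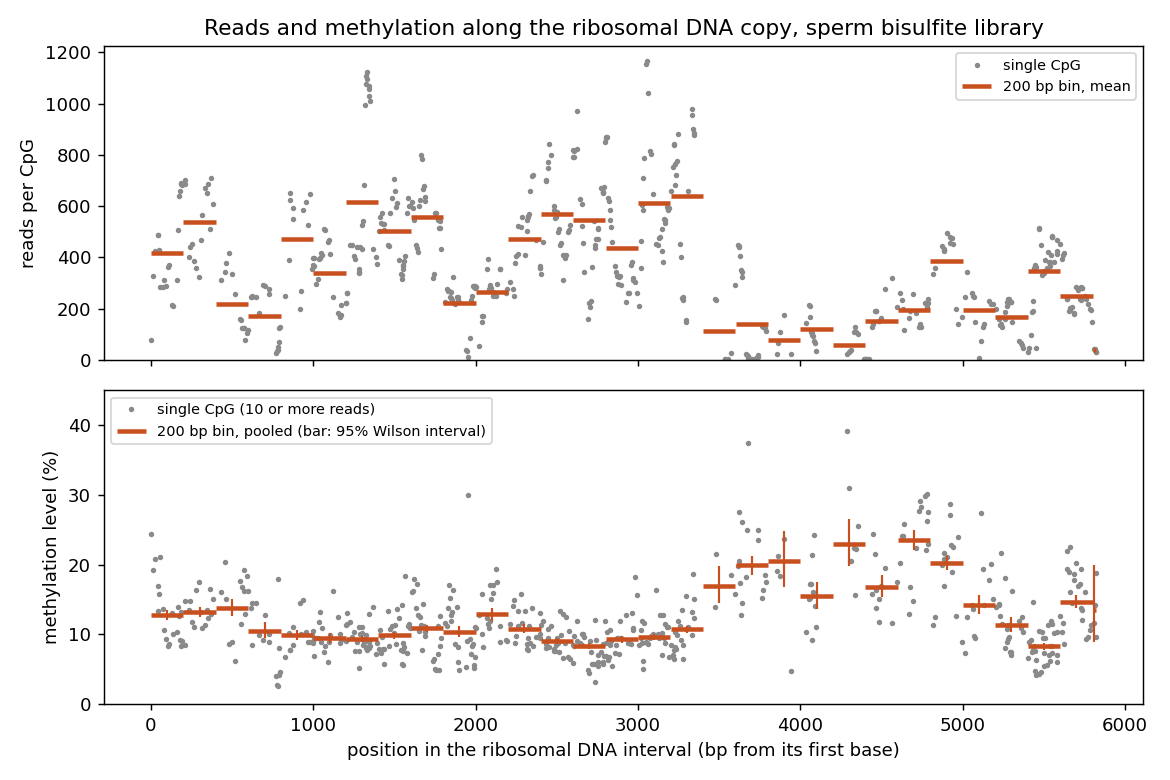
Reads per CpG (upper panel) and methylation level in percent (lower panel) against position in the interval in bp, with grey points for single CpGs and orange bars for 200 bp bins (mean reads; pooled level with its 95% Wilson interval). Reads fall and levels rise between positions 3401 and 5200, where the level is 19.3% against 10.2% before and 10.7% after.

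In the profile along the unit the reads also rise and fall over short distances inside the first stretch. For example the bins from 401 to 800 had 216 ± 118 and 172 ± 102 reads per CpG, between 539 ± 136 at 201 to 400 and 473 ± 161 at 801 to 1000. Between pairs of CpGs the correlation of reads was 0.912 at 1 to 20 bp and 0.598 at 21 to 40 bp. In the 8 classes of 20 bp from 41 to 200 bp it lay between 0.250 and 0.394, and in the 10 from 201 to 400 bp between 0.1004 and 0.279, without a steady fall in either range. Levels of CpGs with 50 or more reads gave 0.680 and 0.548 in the first 2 classes, 0.237 to 0.432 from 41 to 200 bp and 0.0992 to 0.314 from 201 to 400 bp. Each class holds at least 1066 pairs for reads and 904 for levels, which share reads and CpGs, so these are given as descriptions.

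Levels of single CpGs were spread over a wide range. The 556 CpGs that had at least 10 reads averaged 12.2%, with an SD of 5.46 percentage points, where binomial counting of independent reads around one common level would give 2.28. How duplicates were handled is not given, so reads here may include PCR copies. The true counting SD may then be larger than this by an unknown amount. The middle CpG was at 10.9%, the quartiles at 8.64% and 14.8%, and 90% of the CpGs lay between 5.72% and 23.1%. The Wilson interval of 122 CpGs lay above the pooled level of these CpGs and that of 110 below it. Within bins the SD was 3.78, against 5.46 over the unit.

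The CpGs with most reads had levels below that of the whole unit. The 5 with most reads lay at positions 3054 and 3048 (1167 and 1155 reads, at 8.74% and 8.92%) and at 1333, 1328 and 1331 (1123, 1106 and 1098 reads, at 7.75%, 9.86% and 8.20%). Both groups are in the first stretch, in surroundings of 25 to 29 listed CpGs. The level at 3054 had an interval of 7.25 to 10.5.

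The extremes of level were mostly at CpGs with few reads. The highest levels were 39.1% at position 4290 (23 reads, interval 22.2 to 59.2), 37.5% at 3675 (16 reads, 18.5 to 61.4), 31.0% at 4300 (29 reads, 17.3 to 49.2), 30.2% at 4782 (202 reads, 24.3 to 36.9) and 30% at 1955 (10 reads, 10.8 to 60.3). Of these 5, the CpG at 4782 is the one with deep coverage, and 4 of them lie in the middle stretch. The lowest levels were 2.63% at 781 (38 reads), 2.78% at 779 (36 reads), 3.21% at 2733 (436 reads, 1.92 to 5.32), 4% at 768 (25 reads) and 4.23% at 787 (71 reads). No CpG with 10 or more reads was free of methylated reads and none was above 80%.

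Neighbours that share nearly all of their reads did not always show the same level. There were 53 pairs of CpGs 2 bp apart, with no further CpG at that distance and 50 or more reads at both, and their reads differed by a median of 2.12%. Their levels differed by a median of 2.03 percentage points and by up to 12.2, between 21.4% at position 4070 and 9.18% at 4072 (103 and 98 reads). That pair was picked as the largest difference and rests on 22 and 9 methylated reads. Whether the differences within pairs exceed counting error was not tested.

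Over the whole interval, local CpG number went with both measurements, but not inside every stretch. Over the 573 CpGs, the Spearman correlation between reads and local CpG number (listed CpGs up to 100 bp away in either direction) was 0.49, and over the 556 CpGs with 10 or more reads that between level and CpG number was -0.51 and that between level and reads -0.35. These CpGs share reads and depth, so the values are descriptions. Inside the stretches the correlation of reads and level was -0.15 from 1 to 3400 (375 CpGs), -0.10 from 3401 to 5200 (99 CpGs) and -0.35 from 5201 to 5822 (82 CpGs). That of reads and CpG number was 0.39, -0.01 and 0.73 (375, 116 and 82 CpGs). Pooled levels in the first stretch fell from 14.6% at 10 to 14 CpGs to 9.47% at 25 or more. In the middle stretch they did not fall, with 19.5%, 17.7%, 19.9% and 19.6% from 5 to 9 up to 20 to 24 CpGs. The last stretch had 11.6%, 12.9% and 9.78% from 15 to 19 up to 25 or more. The value of -0.51 thus mixes stretches of unlike level and CpG number.

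At equal CpG number the middle stretch had the higher level, by an amount that varied. Its limits were chosen after the levels were seen, so a higher level is partly built in and the comparison is a description. Among CpGs with 10 to 14 listed CpGs around them, the level was 14.6% (14 to 15.3) from position 1 to 3400 and 17.7% (16.7 to 18.7) from 3401 to 5200, over 24 and 38 CpGs. Among those with 15 to 19 it was 11.6% (11.2 to 12.1) and 19.9% (19.2 to 20.7), over 66 and 49 CpGs. Among those with 20 to 24 it was 10.1% (9.79 to 10.4) and 19.6% (18.3 to 21.0), over 112 and 18 CpGs. With 25 or more around them the middle stretch had only 3 CpGs with 6 reads.

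Against other CpG-dense autosomal DNA, the ribosomal DNA was read many times more often and was more methylated. The comparison set was the 829602 autosomal CpGs with a local CpG number of 15 or more, without the interval and its 20 kb flanks. Their mean was 5.57 ± 6.96 reads (SD over CpGs) with a median of 5, and their level was 3.38% (3.37 to 3.40). The ribosomal DNA had 67.3 times their reads per listed CpG and a level 7.74 percentage points higher. The conversion rate of the library is not given in the sources used here, and its part in the level of the ribosomal DNA was not tested.

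The sign of this difference in level depended on the density. At 10 to 14 CpGs the ribosomal DNA was at 15.6% (15.1 to 16.2, 62 CpGs) and other autosomal DNA at 29.2%; at 15 to 19 the values were 14.3% (13.9 to 14.6, 122 CpGs) and 5.88%, at 20 to 24 they were 10.97% (10.7 to 11.2, 161 CpGs) and 2.70%, and at 25 or more 9.51% (9.34 to 9.69, 220 CpGs) and 1.99%. The ribosomal DNA thus had the lower level in sparser surroundings and the higher level in the denser ones, where most of its CpGs lie. At 5 to 9 CpGs, with only 8 CpGs in the ribosomal DNA, the levels were 19.5% (17.0 to 22.2) and 67.6%. Over autosomal CpGs of up to 19 reads the latter was 74.6%. Mean reads per listed CpG were 22.5, 61.5, 55.3, 61.8 and 79.3 times those of other autosomal DNA from the sparsest to the densest of these classes. By medians the sparsest class was at 29.2 times.

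**Figure D3:**
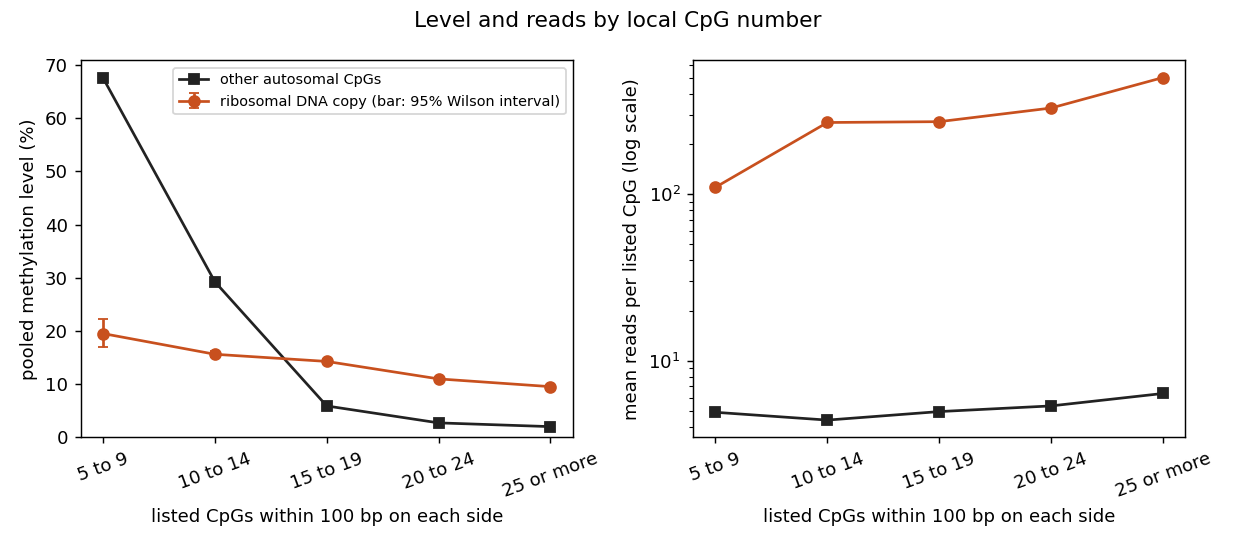
Pooled methylation level in percent (left) and mean reads per listed CpG on a log scale (right) against local CpG number (listed CpGs up to 100 bp away in either direction), for the ribosomal DNA copy (orange, with 95% Wilson intervals of the level) and other autosomal CpGs (black). The level falls from 19.5% to 9.51% in the ribosomal DNA and from 67.6% to 1.99% elsewhere. All 8 ribosomal CpGs of the sparsest class lie between positions 3401 and 5200.

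As the plot by local CpG number shows, the level of the ribosomal DNA changed much less over the classes than that of other DNA. Of its 556 CpGs with 10 or more reads, 501 (90.1%) were under 20%, where 46.6% of all such autosomal CpGs and 97.5% of those in the comparison set were. The share between 5% and 20% set it apart more clearly in value, with 87.2% of its CpGs, 11.1% of all autosomal ones and 18.3% of the comparison set. At 10 to 20 reads a level moves in coarse steps, and 78.1% of the comparison CpGs had no methylated read, so shares at single CpGs are not on equal terms with the deeply read unit.

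Bins are less affected by this. Of 51354 autosomal 200 bp bins with 10 or more listed CpGs and 50 or more reads, 22.9% were above 5% in level, and all 27 bins of the ribosomal DNA that met the same limits were. The autosomal bins had a median of 1.79% and quartiles of 0.68% and 4.47%, with 10% of them above 26.04%, and the ribosomal bins had a median of 10.9% and ranged from 8.29% to 23.5%. Of the autosomal bins, 5.62% fell into that range. In mean reads per CpG 0.0487% of the autosomal bins reached 50, and all 27 ribosomal bins did, with a lowest value of 57.8. Of the autosomal bins, 3 were above the median ribosomal bin of 346 reads per CpG.

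**Figure D4:**
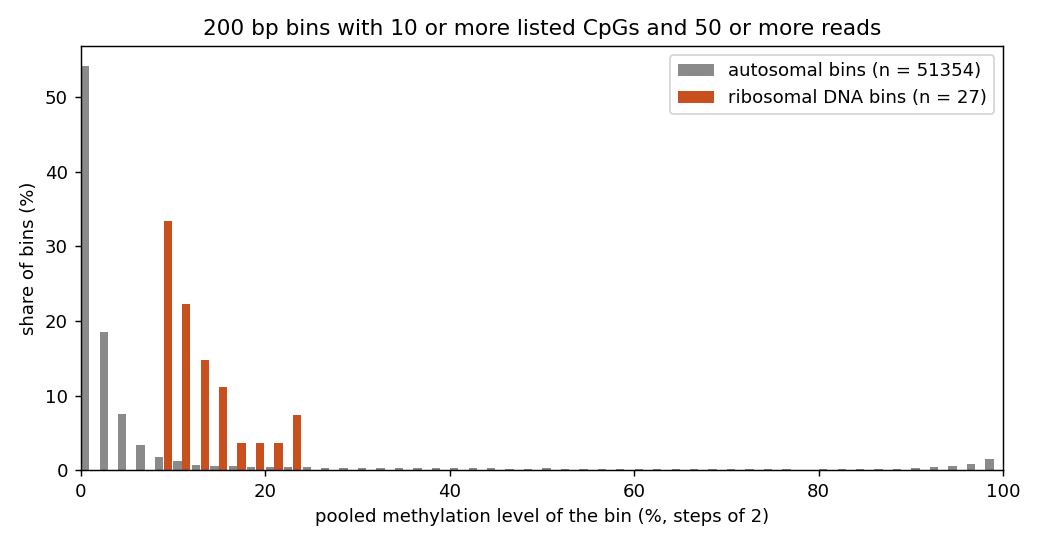
Share of 200 bp bins in percent against their pooled methylation level in steps of 2 percentage points, for 51354 autosomal bins (grey) and 27 bins of the ribosomal DNA copy (orange), all with 10 or more listed CpGs and 50 or more reads. The ribosomal bins lie between 8.29% and 23.5%, on the falling side of the low group of autosomal bins, which is fullest below 2%.

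In the histogram of bin levels the fullest step of the ribosomal bins is 8% to 10%, with 9 of the 27, and that step holds 929 of the 51354 autosomal bins. The steps below 2% and from 2% to 4% hold 27803 and 9504 autosomal bins and no ribosomal one. Counts per CpG do not show whether each copy carried a few methylated CpGs or a few copies carried many, so these 2 cannot be told apart from the table.

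Among back-to-back windows of the same length on the 19 autosomes the interval was first in number of listed CpGs, with 573 against 472 in the next of 407397 windows. CpGs without reads are not listed and the interval is deeply read, so this rank also depends on depth. The interval begins and ends on listed CpGs, unlike the windows. By reads per listed CpG it was at rank 3 of the 99711 windows with 50 or more listed CpGs. The 2 above it, on chromosome 2 from 98502419 to 98508240 and on chromosome 9 from 3021619 to 3027440, had 72 and 55 listed CpGs, means of 114179 and 4697 reads and levels of 53.6% and 46.8%. Among the 1198 other windows with 200 or more listed CpGs the highest mean was 9.21 reads, and their median level was 7.65%. Of these windows 25.96% had a higher level than the ribosomal DNA.

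Windows with over 100 reads per listed CpG and a level under 20% were rare. Besides the ribosomal DNA there were 3, on chromosome 16 from 11143309 to 11149130 (172 reads per CpG, 13.6%), on chromosome 19 from 61270729 to 61276550 (161 reads, 9.27%) and on chromosome 16 from 57387455 to 57393276 (105 reads, 14.98%). Their reads were concentrated on part of their CpGs, with 21 of 82, 10 of 53 and 27 of 74 at 50 reads or more, while in the ribosomal DNA 92.3% were. They were picked by these values, so the likeness in level is no finding.

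Reads were few at some places inside the unit. Of the 573 CpGs, 17 had fewer than 10 reads, all of them in the middle stretch and in 4 runs, at positions 3534 to 3554 (3 CpGs with 3 to 4 reads), 3679 to 3728 (8 CpGs, 1 to 6 reads), 4391 to 4423 (5 CpGs, 3 to 5 reads) and 5101 (1 CpG, 9 reads). The 10 CpGs before and after the second run reached 450 and 173 reads. Pooled over these 17 CpGs the level was 49.2% (37.3 to 61.2) from 63 reads, and without them the unit was at 11.1% and its middle stretch at 19.2%.

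Other places in the genome repeat the spacing of these CpGs. Runs of 4 equal distances between listed CpGs were extended up to 800 bp to each side, and loci were kept where at least 15 CpGs and 70% of those listed matched. This search was added after the values were seen, compares positions and not sequence, and found 5 loci. The longest was on chromosome 6 from 3150774 to 3151557, where 36 of 38 listed CpGs matched positions 3685 to 4468 of the ribosomal DNA in the same orientation.

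At one of these gaps the chromosome 6 locus had many reads where the unit had few. At positions 4391, 4398, 4406, 4412 and 4423 the ribosomal DNA had 4, 4, 4, 3 and 5 reads, and the matching CpGs on chromosome 6, from 3151480 to 3151512, had 544, 579, 589, 544 and 418. Their level on chromosome 6 was 17.4% (16.0 to 18.9), against 20.2% at the 4 CpGs on each side of the gap in the ribosomal DNA, which had 102 to 190 reads. Of the 20 reads on chromosome 17 at these 5 CpGs, 15 were methylated. Elsewhere 29 of the 36 matching CpGs on chromosome 6 had under 10 reads, among them those opposite positions 3685 to 3728, where the unit was also low. How reads that match several places were treated is not given in the sources used here, and their part in the other gaps was not tested.

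**Figure D5:**
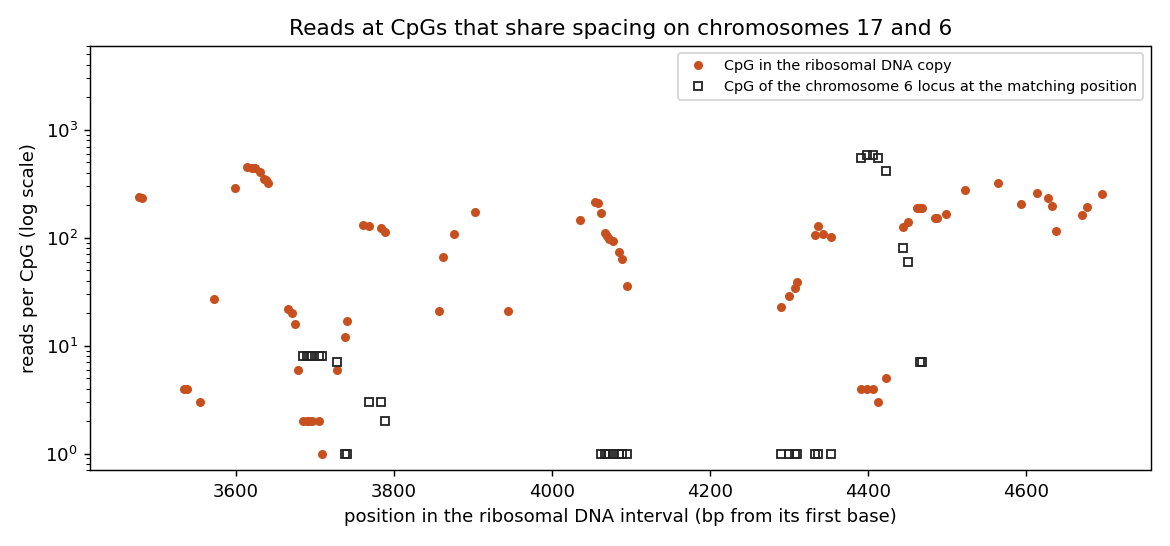
Reads per CpG (log scale) against position in the ribosomal DNA interval in bp from 3401 to 4700, for the ribosomal DNA copy (orange circles) and for the CpGs of the chromosome 6 locus at matching positions (open black squares). At positions 4391 to 4423 the ribosomal DNA has 3 to 5 reads and chromosome 6 has 418 to 589.

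As the plot of reads on chromosomes 17 and 6 shows, the high reads on chromosome 6 lay at a few neighbouring CpGs, with 7 of the 36 at 50 reads or more. Adding all of its matching reads to the unit gave a level of 11.2% and 380.0 reads per CpG.

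The other 4 loci were shallow, and their values are given over the matching CpGs alone. On chromosome 1 from 56838902 to 56839217, 21 of 22 listed CpGs matched positions 4627 to 4942 in opposite orientation, with 2.76 reads per CpG and a level of 67.2% (54.4 to 77.9), against 293 reads and 22.6% at the same CpGs of the unit. On chromosome 11 from 103934062 to 103934446, 26 of 36 matched positions 1 to 385 in opposite orientation, with 5.27 reads and 40.1% (32.3 to 48.5), against 465 reads and 12.7%. The intervals of these 2 loci lay above the level of the unit. They rest on 58 and 137 CpG reads at neighbouring CpGs that share reads, so they are too narrow and the difference was not tested. On chromosome 10 from 82417855 to 82418474, 15 of 20 matched positions 4077 to 4696 in opposite orientation, with 16.1 reads and 22.4% (17.6 to 28.1), against 169 reads and 18.02% (16.6 to 19.6). With all 20 listed CpGs the level of this locus was 28.2% (23.4 to 33.6). On chromosome 1 from 44255629 to 44255796, 16 of 20 matched positions 72 to 239 in the same orientation, with 7.25 reads and 6.03% (2.95 to 11.9), against 469.7 reads and 11.2% (10.5 to 11.9). At these 2 loci the intervals of locus and unit overlapped, so no difference could be shown at this depth.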

How the data were processed

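The deposited table holds, per the file headers, 2 raw counts for each CpG, total and methylated reads. Bowtie and mm9 are named in the submitters' processing notes. How reads were aligned, and how duplicates and reads with several matches were handled, is not given in the sources used here. Positions may be shifted by 1 bp, and CpGs without reads are not listed, so CpG numbers are lower bounds. The shortfall can be larger where reads are few, so CpG numbers of the unit and of other DNA are not on equal terms. From these counts levels (methylated over all reads), means and 95% Wilson intervals were computed with Python 3.11.15, numpy 2.4.6, pandas 2.3.3, scipy 1.17.1 and matplotlib 3.10.9, and tested on simulated reads and planted CpG spacings. The library's median was 3 reads per listed CpG. Bins were named as the 3 highest and 3 lowest in level and in reads (5 or more CpGs) and both end bins, and CpGs as the 5 with most reads and the 5 highest and lowest levels (10 or more reads). Members, sets and settings were chosen with earlier results of these data known.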

Additional observations from a re-analysis of the deposited data

How the results depend on the processing

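No paired analysis was possible because there is 1 library and no second group. Of 31 alternative values of 11 results, 21 stayed near the main value (within its counting interval, or within 1.5 times for reads, ranks and SDs), 9 moved and 1 reversed; 4 were chosen after seeing the data. The level of 11.1% became 12.2% as a mean of CpGs, 11.5% without the 10% of CpGs with most reads, and 39.8% over the 21 CpGs of up to 19 reads. Its difference of 7.74 from CpG-dense DNA became -18.1 against 10 to 14 CpGs, 7.10 against 25 or more CpGs within 250 bp and 8.10 against CpGs with 10 or more reads. In the value of -18.1 the ribosomal side was still all 573 CpGs, so the reversed value sets unlike densities against each other. With 10 to 14 CpGs on both sides the levels were 15.6% in the ribosomal DNA and 29.2% elsewhere. The range over bins of 15.2 points became 27.1 with 100 bp bins, 26.7 with bins shifted by 100 bp and 12.2 with 400 bp bins; in the first 2 the highest bin held 2 CpGs with 52 reads. Rank 3 by reads became 12 with windows of 10 or more CpGs. Depth limits the 17 CpGs under 10 reads and the flanks.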

Other observations

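In the 53 pairs of ribosomal CpGs 2 bp apart, the first CpG, in order of position, was the more methylated in 33, the second in 19, and 1 pair was equal. Pooled, the first CpGs were at 10.4% and the second at 9.64%. In 9849 pairs 2 bp apart of the CpG-dense autosomal set, with 10 or more reads at both CpGs, the pooled levels were 2.73% and 2.81%. The first was higher in 1434 pairs and the second in 1503, and 6912 were equal. The ribosomal pairs had 50 or more reads at both CpGs, so the counts are not on equal terms. Whether the order differs between these sets was not tested.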
